A study of Mus musculus with 8 samples.

Results

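Complement and coagulation factors are plasma proteins, most of them made by hepatocytes. The 46 genes described here were listed by role, as 14 of complement, 5 of the lectin pathway, 14 of clotting and 13 of inhibition and fibrinolysis. Of these, 43 had a probe set on the array that names the gene alone, out of 19938 genes tested; C3, Klkb1 and Cpb2 are not analysed here. Each liver sample, from a C57BL6 mouse, was hybridised to 1 Mouse Gene 1.0 ST array of Affymetrix, which reads 1 colour. In the hydrogen water group (4 arrays) mice drank the water for 4 weeks from the age of 7 weeks, and 4 control arrays came from the other mice; what the controls drank is not stated, and the treatment text is the same on all 8 samples. All animals were fasted for 17 h, so both groups carry the fast and no fed group is part of the comparison. The sex of the animals and the dose of hydrogen are not stated either. Nothing states that the samples came from separate animals, and if some did not, p-values measure a spread that may be technical.

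Complement is a cascade of plasma proteases that tags and lyses microbes. It starts from antibody-bound C1 (the classical pathway), from lectins that bind sugars on a surface (the lectin pathway), or from spontaneous turnover of C3 (the alternative pathway), and it ends in a pore built from C5 to C9. Clotting is a parallel cascade that turns fibrinogen into fibrin through thrombin, held in check by serpins and the protein C system and undone by plasmin. In liver, hepatocyte factors such as HNF1, HNF4 and C/EBP are known to drive many of these genes, and interleukin 6 raises several of them in the acute phase.

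Promoter windows from RefSeq (GRCm38.p6), each holding the 250 bases before an annotated start, are shown for the 3 members whose groups did not overlap and for the 3 fibrinogen chains, which varied little between arrays. Each runs 5′ to 3′ on the gene's strand, and capitals mark the letters GTTAAT or their reverse complement ATTAAC, a half-site of HNF1.
C1ra, chr6:124512371-124512620, plus strand: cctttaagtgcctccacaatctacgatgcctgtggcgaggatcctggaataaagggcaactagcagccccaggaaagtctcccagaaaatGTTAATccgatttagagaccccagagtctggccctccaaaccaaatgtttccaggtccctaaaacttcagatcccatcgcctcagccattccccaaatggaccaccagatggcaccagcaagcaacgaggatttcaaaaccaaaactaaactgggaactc
F13b, chr1:139501457-139501706, plus strand: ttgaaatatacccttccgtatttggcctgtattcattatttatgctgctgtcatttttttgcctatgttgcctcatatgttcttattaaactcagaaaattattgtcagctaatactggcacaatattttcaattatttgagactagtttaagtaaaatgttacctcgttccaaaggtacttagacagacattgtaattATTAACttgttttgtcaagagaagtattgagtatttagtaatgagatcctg
F10, chr8:13037058-13037307, plus strand: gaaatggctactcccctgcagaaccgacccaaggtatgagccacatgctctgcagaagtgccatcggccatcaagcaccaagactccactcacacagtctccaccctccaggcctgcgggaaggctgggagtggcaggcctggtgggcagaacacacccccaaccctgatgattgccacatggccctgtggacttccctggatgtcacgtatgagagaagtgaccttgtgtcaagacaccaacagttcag
Fga, chr3:83025903-83026152, plus strand: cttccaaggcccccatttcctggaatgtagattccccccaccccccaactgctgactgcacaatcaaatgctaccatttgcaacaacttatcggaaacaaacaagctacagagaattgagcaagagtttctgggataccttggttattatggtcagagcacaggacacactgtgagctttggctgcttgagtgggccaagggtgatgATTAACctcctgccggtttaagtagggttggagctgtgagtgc
Fgb, chr3:83049864-83050113, minus strand: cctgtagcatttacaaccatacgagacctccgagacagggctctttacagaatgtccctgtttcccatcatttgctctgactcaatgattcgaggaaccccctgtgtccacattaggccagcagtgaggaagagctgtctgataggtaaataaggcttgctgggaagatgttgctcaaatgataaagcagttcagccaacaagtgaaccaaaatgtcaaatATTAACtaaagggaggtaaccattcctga
Fgg, chr3:83007474-83007723, plus strand: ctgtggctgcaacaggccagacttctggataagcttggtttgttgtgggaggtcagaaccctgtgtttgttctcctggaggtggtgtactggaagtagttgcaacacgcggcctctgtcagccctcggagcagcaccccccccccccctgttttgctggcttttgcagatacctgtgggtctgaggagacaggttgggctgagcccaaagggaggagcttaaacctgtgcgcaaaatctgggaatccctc

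GTTAAT was found on either strand in C1ra, F13b, Fga and Fgb, and in neither the F10 nor the Fgg window. It began 29 bases before the start in Fgb, 43 in Fga, 51 in F13b and 160 in C1ra. RefSeq windows matched 36 of the 46 genes, with 38 windows in all, and 11 of these 38 (28.9%) held the letters, against 6.43% of all 32851 windows of that length. The windows that held them also included those of Hc, C4bp, C8a, C8b, Cfp, Proz and Vtn. CAAAGT, an HNF4 half-site, was in 9 of 38 (23.7%) against 12.6% of all windows, and TTNNGNAA, a C/EBP motif, in 16 of 38 (42.1%) against 36.8%. The TATA box letters TATAAA were in 4 of 38 (10.5%) against 12.4%. Both strands were searched for each, and matches of different motifs may overlap. These counts describe letters, and no binding was measured.

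Over all genes tested, control 3 and hydrogen water 4 were most often the lowest or the highest array, and the other arrays ran from 19.3% to 24.1%. Control 3 was the lowest or the highest of the 8 arrays in 20 of 43 members (46.5%), against 38.2% of all genes tested. Hydrogen water 4 was so in 14 of 43 (32.6%), against 32.4%. Among the members that was close to control 1 (13 of 43) and hydrogen water 1 (12 of 43). Array medians over all 35556 probe sets ran from 5.27 to 5.37 on the log2 scale. Of the 10 listed hepatocyte markers 9 were measured, with mean signals from 13.35 (log2) upwards, and their differences between groups lay between -0.04 and 0.04.

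Members gave strong signals. Of the 43, 39 lay above the 75th percentile of signal over all genes tested and 36 above the 90th. Signals of different probe sets depend on their probes, so they do not rank transcripts by abundance. The median of the members' mean log2 signals was 11.81, and that of all genes was 5.87. By role it was 11.81 for complement, 10.80 for the lectin pathway, 11.43 for clotting and 12.66 for inhibitors and fibrinolysis. At the upper end stood Vtn, which encodes vitronectin, a plasma protein that binds the forming pore and the inhibitor PAI-1: its log2 signal was 13.89, 13.83, 13.70 and 13.83 on controls 1 to 4 and 13.79, 13.83, 13.81 and 13.88 on hydrogen water 1 to 4. The groups overlapped throughout. At the lower end stood Tfpi, the inhibitor of tissue factor, which endothelium is known to make, at 6.17, 6.33, 6.29 and 6.31 on the controls and 5.99, 6.65, 6.12 and 6.19 with hydrogen water. Here hydrogen water 2 was highest and hydrogen water 1 lowest. Thbd, the endothelial receptor through which thrombin activates protein C, had a mean log2 signal of 6.66, Cfp, which many leukocytes make, 7.25, and F8, known as an endothelial product, 7.87.

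Members also varied little between arrays of a group. The residual SD, the spread left in the log2 signal after the group means were taken out, had a median of 0.12 over the members and 0.18 over all genes. It lay below the 25th percentile of all genes for 24 of 43 members and above the 75th for 4. Strong signals vary less on this array in general. Among 802 genes with a mean log2 signal of at least 11 the median was 0.16, and among the 27 members there 0.10. At 13 or more it was 0.10 among 114 genes and 0.05 among the 7 members there. The 9 measured hepatocyte markers had a median of 0.06, so a low spread was not particular to the members. Kng1, which encodes the kininogens that carry bradykinin, had a residual SD of 0.03 and stayed between 13.56 and 13.69 (log2 signal) on all 8 arrays. Kng1 has a close paralogue, Kng2, with a probe set of its own. The β chain of fibrinogen, Fgb, also had 0.03, C5 (Hc) 0.05 and plasminogen, Plg, 0.05.

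**Figure D1:**
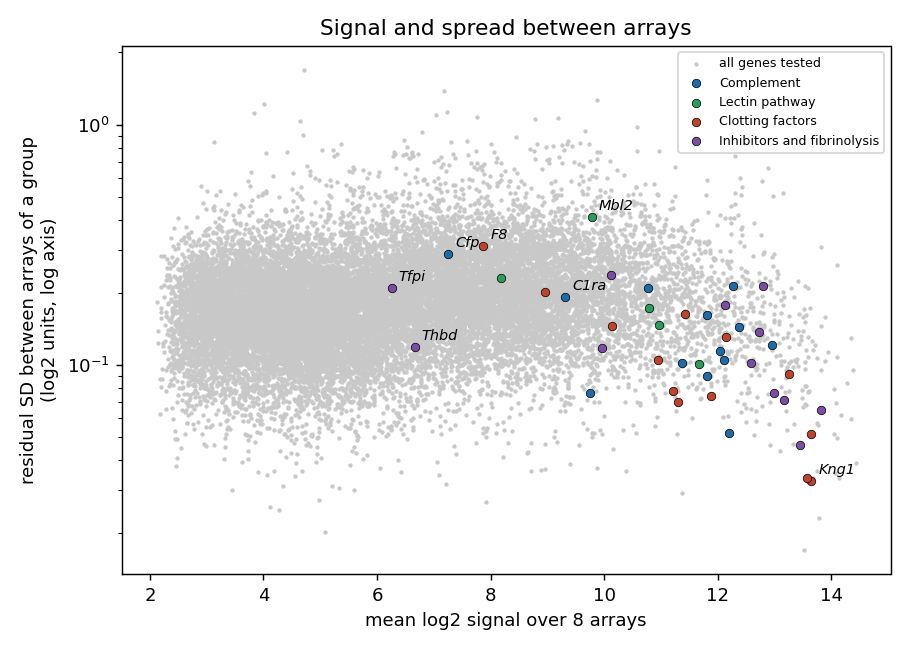
Mean log2 signal over 8 arrays (x axis) against the residual SD between arrays of a group (y axis, log2 units on a log axis) for all 19938 genes tested (grey) and the 43 members by role (coloured). Kng1 lies near the foot of the cloud at a residual SD of 0.03, and Mbl2 stands highest among the members at 0.41.

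The largest residual SD among the members was that of Mbl2, mannose-binding lectin C, a pattern-recognition molecule that starts the lectin pathway. At 0.41 it was at the 97.4th percentile of all genes. The log2 signal was 10.19, 10.15, 9.10 and 9.90 on controls 1 to 4, and 10.04, 9.81, 9.74 and 9.35 with hydrogen water. Control 3 was the lowest of all 8 arrays and hydrogen water 4 the next lowest. The difference between groups was -0.10 (95% interval -0.59 to 0.39), and without control 3 it was -0.35.

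The comparison of the groups asked which transcripts differ in fasted liver between mice given hydrogen water and controls. Differences are hydrogen water minus control on the log2 scale. Of the 43 members 0 passed limma's test at a Benjamini-Hochberg adjusted p under 0.05 over 19938 genes (background 0%), and the lowest adjusted p of a member was 0.656. At an unadjusted p under 0.05 there was 1 member (2.33%), against 7.17% of all genes. That member was lower with hydrogen water, as were 3.57% of all genes, and 0 members were higher at that p, against 3.6% of all genes. With each array centred on its median there were 5 such members, against 8.01% of all genes. No member differed by 0.5 or more, while 1.2% of all genes did. The 95% interval lay wholly within 0.5 of 0 for 38 members and reached past it for 5. With 1 array left out, the difference of 33 members moved by over 1.5 times or changed sign. A difference near 0 passes such a ratio with a small shift. The share over all genes is not given here, so the count says nothing particular about the members.

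The difference was below 0 in 27 of 43 members, against 51.3% of all genes, with a median of -0.05 against -0.00 over all genes. With each array centred on its median, 34 of 43 members were below 0, against 62.1% of all genes, and with quantile normalization 26 of 43, against 60.6%. The groups did not overlap in 3 members (6.98%), against 3.76% of all genes. All 3 (C1ra, F10 and F13b) were lower with hydrogen water, as were 2.01% of all genes, and 0 members lay apart on the higher side, where 1.76% of all genes did.

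**Figure D2:**
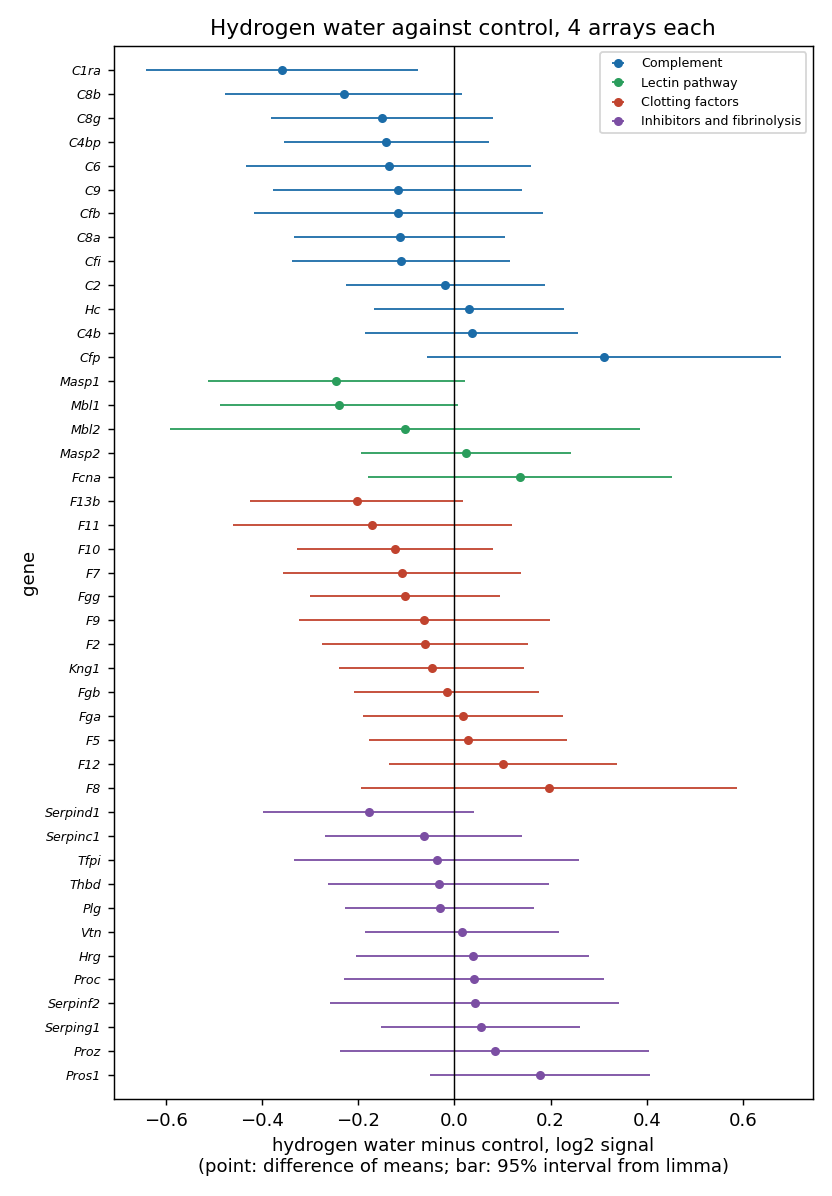
Difference of the group means (points, log2 signal, hydrogen water minus control) with its 95% interval from limma (bars) for each of the 43 members, coloured by role and with 4 arrays in each group. The interval crosses 0 for 42 members, and C1ra lies wholly below it.

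Among complement genes of the classical and alternative pathways and the pore, 10 of 13 members had a difference below 0, with a median of -0.12. C1ra, which encodes C1r, the protease that starts the classical pathway, stood at 9.75, 9.49, 9.45 and 9.29 (log2 signal) on controls 1 to 4 and at 8.88, 9.28, 9.10 and 9.29 with hydrogen water. The lowest control, control 4, and the highest hydrogen water array, hydrogen water 4, were almost equal. Controls averaged 9.50 ± 0.19 (SD, n = 4) and hydrogen water arrays 9.14 ± 0.20 (SD, n = 4), which is a difference of -0.36 (SE 0.13, 95% interval -0.64 to -0.08; limma adjusted p = 0.656). Without control 1 the difference was -0.28, and without hydrogen water 1 it was -0.27; in both cases it was no longer under an unadjusted p of 0.05.

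C1ra has a near-identical copy, C1rb, and a second probe set names both. On that probe set the log2 signal was 11.71, 11.79, 11.81 and 11.72 on the controls and 11.61, 11.63, 11.50 and 11.64 with hydrogen water. The groups lay apart there too, in the same direction and with a difference of -0.16 (SE 0.09; limma adjusted p = 0.758). These values came from a separate fit over 21335 genes, in which rows naming several genes were allowed. Signals of the copies cannot be separated on it. C1s1, which encodes the partner protease C1s, differed by -0.02 (SE 0.10).

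For the next steps of the cascade, differences ran from -0.23 (C8b) to 0.04 (C4b). C2 and C4b, whose products form the classical C3 convertase, differed by -0.02 (SE 0.09) and 0.04 (SE 0.10), and Cfb, the protease of the alternative convertase, by -0.12 (SE 0.14). C4b has a paralogue, C4a, with a probe set of its own. The regulators Cfi, which cleaves C3b and C4b, and C4bp, its cofactor for C4b, differed by -0.11 (SE 0.10) and -0.14 (SE 0.10). Genes of the pore gave -0.23 (SE 0.11) for C8b, -0.15 (SE 0.11) for C8g, -0.11 (SE 0.10) for C8a, -0.14 (SE 0.14) for C6 and -0.12 (SE 0.12) for C9, against 0.03 (SE 0.09) for Hc. The 3 chains of C8 were thus all below 0, each with an interval that included 0. For C8b the interval ran from -0.48 to 0.02 (limma unadjusted p = 0.064). That p fell under 0.05 with median centring, with array weights, without control 1 and without hydrogen water 2, and under no other alternative.

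Cfp, which encodes properdin, the plasma protein that stabilises the alternative convertase, had the largest difference above 0 among the members. Its log2 signal was 7.18, 7.12, 7.40 and 6.68 on controls 1 to 4 and 7.09, 7.50, 7.32 and 7.73 with hydrogen water. Control 4 was lowest and hydrogen water 4 highest, and the groups overlapped. The difference was 0.31 (SE 0.17, 95% interval -0.06 to 0.68; limma adjusted p = 0.743). It was 0.17 without control 4 and 0.42 without hydrogen water 1, where it fell under an unadjusted p of 0.05. Properdin is known as a product of macrophages and other leukocytes, and the markers of Kupffer cells, which are liver's own macrophages, lay on the same side: 11 of 11 had a difference above 0 (48.7% over all genes), with a median of 0.39, and 4 of the 11 had an unadjusted p under 0.05 (7.17% over all genes). The mean of these markers around each gene's own level ran from -0.43 (control 4) to 0.15 (control 3) in controls and from -0.15 (hydrogen water 1) to 0.61 (hydrogen water 4) with hydrogen water. Neutrophils are leukocytes too, and of their 7 markers 3 had a difference above 0 and 4 below, with a median of -0.005. Of these 7, 0 had an unadjusted p under 0.05, and their mean log2 signals were low, from 3.38 to 5.33. The part of either cell type in the Cfp difference was not tested. In whole liver, a change in the number of cells of a type and a change in RNA per cell cannot be told apart.

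**Figure D3:**
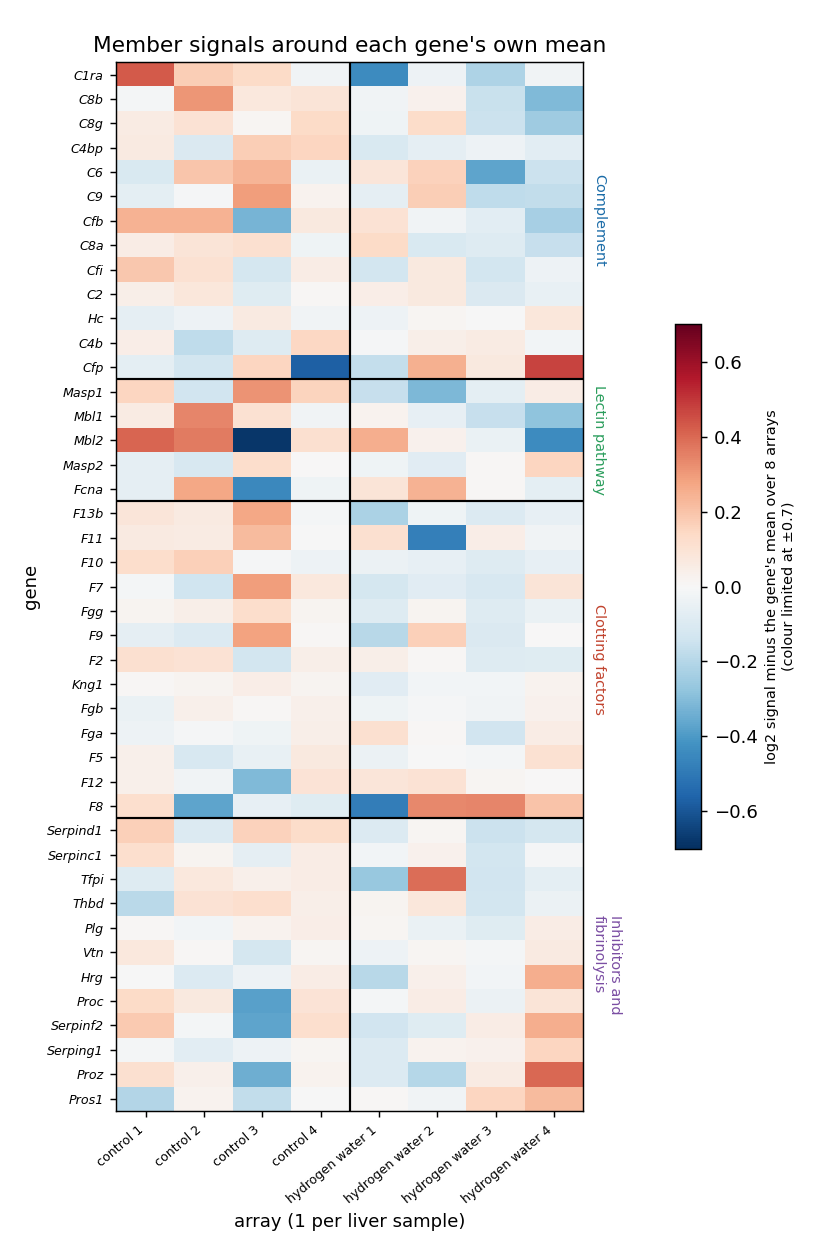
Log2 signal of each member minus that gene's mean over the 8 arrays (colour, limited at ±0.7), with 1 row per gene grouped by role and 1 column per array. Control 3 is the lowest or highest array in 20 of the 43 rows, and rows of Kng1 and Fgb are nearly blank.

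In the lectin pathway 3 of 5 members had a difference below 0, with a median of -0.10. That median was 0.0066 without control 1, -0.0086 without control 2 and -0.205 without hydrogen water 1. Mbl1, mannose-binding lectin A, stood at 11.02, 11.31, 11.08 and 10.95 (log2 signal) on controls 1 to 4 and at 10.996, 10.91, 10.81 and 10.69 with hydrogen water. Control 4 lay below hydrogen water 1, so the groups overlapped. The difference was -0.24 (SE 0.11, 95% interval -0.49 to 0.01; limma adjusted p = 0.704). Masp1 and Masp2 encode the proteases that travel with these lectins, and they differed by -0.25 (SE 0.12) and 0.02 (SE 0.10). Fcna, ficolin A, a lectin that macrophages are known to make, stood at 8.13, 8.46, 7.74 and 8.16 on the controls and at 8.28, 8.43, 8.20 and 8.12 with hydrogen water. Here control 2 was highest and control 3 lowest, and the difference was 0.14 (SE 0.14, 95% interval -0.18 to 0.45). It was 0.0087 without control 3 and 0.25 without control 2. The array with the highest Kupffer cell markers, hydrogen water 4, had the lowest Fcna signal of its group; the part of these cells was not tested.

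Among clotting factors 9 of 13 members had a difference below 0, with a median of -0.06. F13b, which encodes the carrier subunit of factor XIII, the enzyme that cross-links fibrin, stood at 11.04, 11.01, 11.22 and 10.94 (log2 signal) on controls 1 to 4 and at 10.73, 10.92, 10.86 and 10.89 with hydrogen water. The lowest control, control 4, was just above the highest hydrogen water array, hydrogen water 2. The difference was -0.20 (SE 0.10, 95% interval -0.42 to 0.02; limma adjusted p = 0.716). F10, factor X, where the intrinsic and extrinsic routes meet, stood at 11.42, 11.47, 11.30 and 11.27 on the controls and at 11.26, 11.24, 11.21 and 11.24 with hydrogen water. It is given here because its groups did not overlap, and so was chosen after its values were seen. Its difference was -0.12 (SE 0.09; limma adjusted p = 0.837), and the controls spread more (SD 0.10) than the hydrogen water arrays (SD 0.02).

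**Figure D4:**
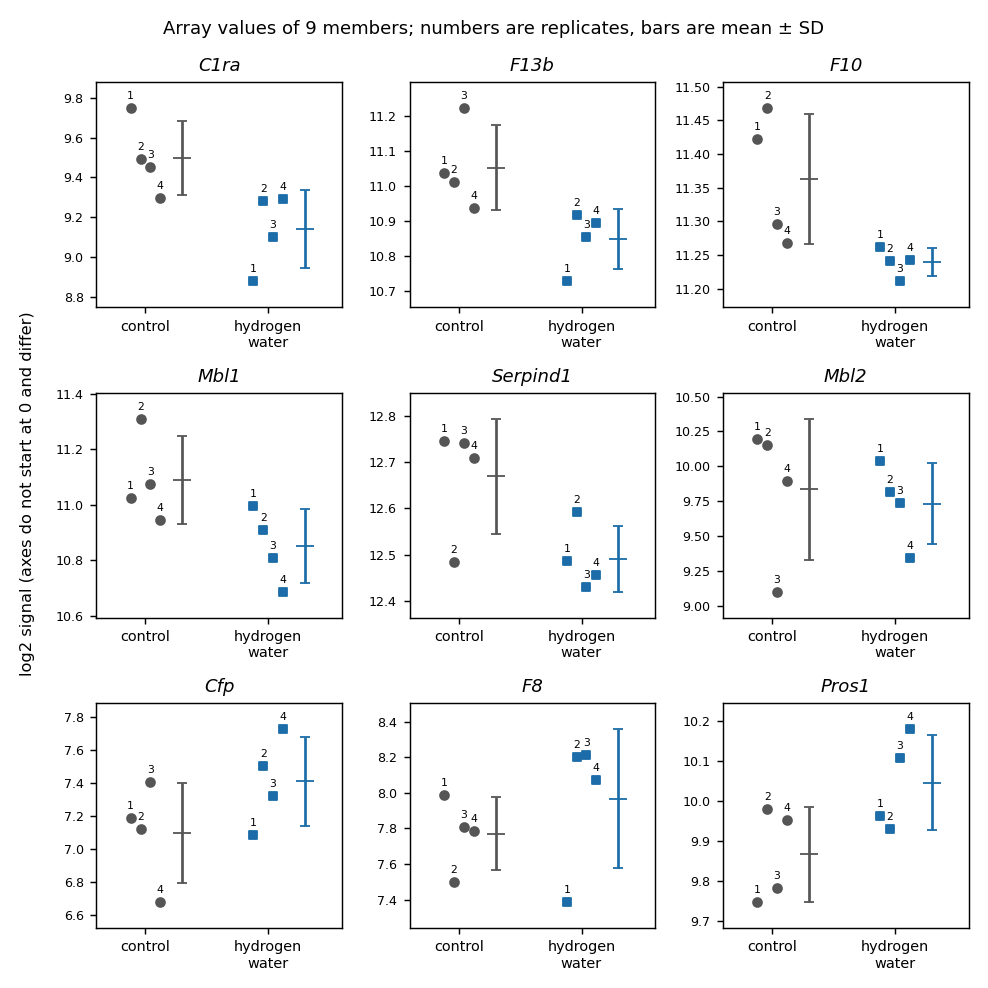
Log2 signal on each array (points, numbered by replicate; circles for control, squares for hydrogen water) with the mean and SD of each group (n = 4) for 9 members. Axes do not start at 0 and differ between panels. C1ra, F13b and F10 show groups that do not overlap, and Mbl2 shows control 3 at 9.10, below every other array.

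F7 and F10 are neighbours in the genome, with Proz beside them. F7, the factor that tissue factor activates, differed by -0.11 (SE 0.11), and Proz, a cofactor for inhibition of factor Xa, by 0.08 (SE 0.15). The vitamin K-dependent factors F2 (prothrombin) and F9 differed by -0.06 (SE 0.10) and -0.06 (SE 0.12). Of the contact and intrinsic factors, F11 gave -0.17 (SE 0.13), F12 0.10 (SE 0.11) and Kng1 -0.05 (SE 0.09). F11 was at -0.04 without hydrogen water 2, and F12 at 0.02 without control 3. The cofactor F5 differed by 0.03 (SE 0.09).

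The chains of fibrinogen lie next to each other in the genome. Fgg, Fga and Fgb, the γ, Aα and Bβ chains, differed by -0.10 (SE 0.09), 0.02 (SE 0.10) and -0.02 (SE 0.09). Fgb stayed between 13.52 and 13.61 (log2 signal) and Fgg between 13.55 and 13.76 over the 8 arrays. All 3 intervals lay within 0.5 of 0. Fga had a second probe set, on which the difference was 0.15.

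F8, the cofactor that hemophilia A lacks, differed by 0.20 (SE 0.18, 95% interval -0.19 to 0.59). Its log2 signal was 7.99, 7.50, 7.81 and 7.79 on controls 1 to 4 and 7.39, 8.20, 8.21 and 8.07 with hydrogen water. Hydrogen water 1 was the lowest of all 8 arrays and the other 3 hydrogen water arrays were the highest. The F8 difference was 0.39 without hydrogen water 1, where it fell under an unadjusted p of 0.05, and 0.11 without control 2. In liver, sinusoidal endothelium is the known source of this factor, and 9 of 9 markers of these cells had a difference above 0 (48.7% over all genes), with a median of 0.32. Their mean around each gene's own level was 0.11, -0.44, -0.27 and -0.01 on controls 1 to 4 and -0.19, 0.43, 0.27 and 0.11 with hydrogen water. Control 2, the lowest control for F8, was also the lowest for these markers, and hydrogen water 1 was the lowest of its group for both. The order differed elsewhere: hydrogen water 1 was lowest of all 8 arrays for F8, while controls 2 and 3 lay below it for the markers. Thbd and Tfpi, the other members named here as endothelial, lay slightly below 0, at -0.03 (SE 0.11) and -0.04 (SE 0.14). The part of sinusoidal endothelial cells in the F8 difference was not tested.

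Among inhibitors and fibrinolysis genes 5 of 12 members had a difference below 0, with a median of 0.03. Serpind1, heparin cofactor II, a serpin that inhibits thrombin, stood at 12.75, 12.48, 12.74 and 12.71 (log2 signal) on controls 1 to 4 and at 12.49, 12.59, 12.43 and 12.46 with hydrogen water. Control 2 lay among the hydrogen water arrays and the other controls above all of them. The difference was -0.18 (SE 0.10, 95% interval -0.40 to 0.04; limma adjusted p = 0.754). Pros1, protein S, the cofactor of activated protein C, stood at 9.75, 9.98, 9.78 and 9.95 on the controls and at 9.96, 9.93, 10.11 and 10.18 with hydrogen water. Hydrogen water 3 and 4 lay above every control, and the difference was 0.18 (SE 0.10, 95% interval -0.05 to 0.41; limma adjusted p = 0.765).

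The main plasma inhibitors were close between groups. Antithrombin, Serpinc1, differed by -0.06 (SE 0.09), the C1 inhibitor Serping1 by 0.05 (SE 0.09) and the plasmin inhibitor Serpinf2 by 0.04 (SE 0.14). Protein C, Proc, differed by 0.04 (SE 0.12), and without control 3 by -0.08. Plg differed by -0.03 (SE 0.09), histidine-rich glycoprotein, Hrg, by 0.04 (SE 0.11) and Vtn by 0.02 (SE 0.09). The endothelial genes Thbd and Tfpi differed by -0.03 (SE 0.11) and -0.04 (SE 0.14).

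Genes that act with the members were read from 4 lists. Of 19 measured complement genes (21 listed), 0 passed the adjusted threshold over all genes, 11 were above 0 and the median difference was 0.07; 5 (26.3%) had an unadjusted p under 0.05, against 7.17% of all genes, with 3 higher (3.6% of all genes) and 2 lower (3.57%). The C1q chain C1qc and the anaphylatoxin receptors C3ar1 and C5ar1, which macrophages carry, differed by 0.62 (SE 0.19), 0.55 (SE 0.21) and 0.39 (SE 0.14), beside the Kupffer cell markers above, a list that itself holds the C1q genes. On the lower side, the regulators Cr1l and Cd59a, which shield cells from complement, differed by -0.29 (SE 0.09) and -0.49 (SE 0.20). Cd55 and Cd46, regulators of the same kind on this list, differed by 0.07 (SE 0.21) and -0.007 (SE 0.22). Without hydrogen water 4 C3ar1 differed by 0.31, and without control 3 Cd59a by -0.29. Limma's adjusted p for C1qc, C3ar1, C5ar1, Cr1l and Cd59a ran from 0.638 to 0.687. Of 15 measured further genes of clotting and fibrinolysis (18 listed), among them receptors, plasminogen activators and inhibitors, 12 were below 0 (51.3% over all genes), with a median of -0.10, and 0 had an unadjusted p under 0.05.

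For the vitamin K cycle and the secretion of clotting factors, 7 of 7 genes were measured, 4 below 0, with a median of -0.02. Vkorc1, the reductase that warfarin inhibits, differed by -0.25 (SE 0.11; limma adjusted p = 0.692), and Nqo1, a quinone reductase, by -0.49 (SE 0.21; limma adjusted p = 0.687). Control 1 stood highest for Nqo1, at 8.31 (log2 signal) against 7.16 to 7.66 on the other controls, and without it the difference was -0.25. The carboxylase Ggcx, which activates the vitamin K-dependent factors, differed by 0.08 (SE 0.13), and by -0.04 without control 3. Of 18 measured transcription and cytokine regulators (20 listed), 12 were above 0 (48.7% over all genes), with a median of 0.11. Nr0b2, the repressor SHP, had a mean of 9.71 ± 0.52 (SD, n = 4) on controls and 8.51 ± 1.03 (SD, n = 4) on hydrogen water arrays, and differed by -1.20 (SE 0.42; limma adjusted p = 0.655). Leaving out hydrogen water 3 gave -0.73. Prox1 differed by 0.50 (SE 0.20, limma adjusted p = 0.687), or 0.36 without hydrogen water 3. Hnf4a differed by 0.13 (SE 0.13), or 0.02 without hydrogen water 4. None of the 59 genes on these lists passed over all genes.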

How the data were processed

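RNA of 8 liver samples from fasted mice was extracted with an RNeasy Mini kit and amplified with the Ambion WT Expression kit, per the labels' protocols. The authors deposited 1 table of log2 signals for 35556 probe sets, and the submitters' processing notes name Affymetrix Expression Console as the tool. Which version, normalization or summary it used is not stated, and the log2 scale was read from the values. Groups came from the sample titles.

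Probe sets were named through the platform annotation (21789 with 1 symbol, 1621 with several, 12146 unnamed here), with symbols updated through a RefSeq table of GRCm38.p6. Each gene was read on its single-symbol probe set with the highest mean. A 2-group model without covariates was fitted to all 19938 genes with lmFit and eBayes (limma 3.58.1, R 4.3.3). The two-sided p-values were adjusted by Benjamini-Hochberg at a threshold of 0.05, with no filter on level. Residual degrees of freedom were 6. The script was tested on simulated data. Arrays have no depth; 4 arrays per group limit the precision.

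The members and lists were chosen with earlier results of these data known. Array values are given for members at an unadjusted p under 0.05 and for the smallest p in each direction in each role. They are also given for the highest and lowest signal and for the largest residual SD. Of the other lists, the rule named at most 4 genes at an unadjusted p under 0.05. A few more were chosen for their role (Cd59a, Cd55 and Cd46 after their values were seen). Replicate numbers were checked as a pairing: deviations of same-numbered arrays correlated between -0.16 and 0.06, so they were not used. Plots were drawn with matplotlib 3.10.9.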

Additional observations from a re-analysis of the deposited data

Results flagged for a closer look

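Of the 86 groups of 4 arrays (43 members in 2 groups), 3 held an array far from the other 3, where chance gives about 1 in 20. F8 stood at 7.39 (log2 signal) on hydrogen water 1, against 8.07 to 8.21 on the other hydrogen water arrays. Proc, protein C, stood at 11.75 on control 3, against 12.20 to 12.27 on the other controls. Serpind1, heparin cofactor II, stood at 12.48 on control 2, against 12.71 to 12.75 on the others.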

How the results depend on the processing

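The count of members past the adjusted threshold was 0 under each of the 16 alternatives. Over all genes it was 0 except for 1 gene without control 2 (Sucnr1) and 1 without control 3 (Aqp8), a range of 0 to 1 with arrays left out. Of the 43 members, 1 had an unadjusted p under 0.05 as reported, against 7.17% of all genes. The count was 0 where rows naming several genes were allowed (7.04% of all genes). Median centring gave 5 (C1ra, C8b, F13b, Masp1 and Mbl1, against 8.01% of all genes). Array weights gave 3, while the share of all genes rose to 10.4%. When 1 array was left out, 1 to 3 members had such a p, and the share of all genes ran from 4.8% to 9.22%. Dropping control 2 gave 3 members (5.69% of all genes), as did control 3 (8.57%) and hydrogen water 1 (6.42%). The count was 2 on dropping control 4 (7.22%), hydrogen water 2 (9.22%) or hydrogen water 4 (5.59%). With the replicate block the count stayed at 1 (C1ra, adjusted p = 0.742) and no call changed.

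The median difference of clotting factors was -0.10 with median centring and that of inhibitors -0.032 with array weights. With arrays left out, the medians ran from -0.205 to 0.0066 for lectin genes, -0.063 to -0.028 for clotting factors and -0.031 to 0.049 for inhibitors.

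Small differences changed sign. With median centring these were C4b (-0.0026), Hc (-0.0088), Masp2 (-0.014), F5 (-0.011), Fga (-0.021), Vtn (-0.023) and Hrg (-0.00078). With array weights they were Fga (-0.0050), Proc (-0.045), Serpinf2 (-0.027) and Vtn (-0.013), and with quantile normalization Plg (0.00081). With arrays left out, ranges that crossed 0 were -0.051 to 0.013 for C2, -0.017 to 0.091 for C4b, -0.022 to 0.070 for Masp2, -0.35 to 0.026 for Mbl2, -0.0050 to 0.055 for F5, -0.13 to 0.020 for F9, -0.016 to 0.066 for Fga, -0.079 to 0.093 for Proc, -0.037 to 0.16 for Proz, -0.074 to 0.11 for Serpinf2, -0.022 to 0.043 for Vtn, -0.10 to 0.0046 for Thbd, -0.040 to 0.11 for Hrg and -0.17 to 0.046 for Tfpi. Causes were not tested.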
